A study of Mus musculus with 10 samples.

Results

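The cells described here are B-cell precursors recovered from the supraspinatus tendon enthesis, the site where tendon joins bone, of mice at postnatal day 18 (P18). They were chosen by their measured RNA in the P18 droplet library. A cell had to show 500 or more genes, to draw no more than 10% of its counts from mitochondrial genes, and to hold at least 1 unique molecular identifier (UMI, the count of 1 captured transcript) of Vpreb3, at least 1 UMI of Igll1, Vpreb1 or Rag1, and no UMI of Ms4a1 or Col1a2. Of the 5396 P18 cells that passed the filter on genes and mitochondrial counts, 1137 met this rule, which is 21.1% (exact binomial 95% interval 20.0 to 22.2). The 3 droplet libraries together held 13479 filtered cells. Intervals throughout cover counting error only.

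The 3 droplet libraries came from wild-type C57BL/6 mice at P11, P18 and P56, 1 library per age, each pooled over a number of animals that the labels do not give. Cells that bound neither a Cd45 antibody nor the dead-cell dye DAPI had been sorted after lysis of red blood cells. Another 7 plates of 96 wells each held cells from Gli1CreERT;Ai14 mice, whose tamoxifen-activated Cre is driven from Gli1, 1 plate per age between P7 and P42. With 1 library at P18, the members are cells of a single pooled sample: all values below describe that library, and no test between cell groups or ages was made.

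B cells form in bone marrow from progenitors that rearrange their immunoglobulin genes. The Rag1 and Rag2 recombinase first cuts the heavy chain locus, and terminal transferase (Dntt) adds bases at the joints. A productive heavy chain, Ighm, then pairs with the surrogate light chain (Igll1 with Vpreb1 or Vpreb2) to form the pre-B-cell receptor, which drives a burst of divisions. The dividing cells later stop, express Rag1 and Rag2 again, rearrange a kappa (Igkc) or lambda (Iglc1 to Iglc3) light chain and become immature B cells. Vpreb3 is a related protein of precursor B cells.

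In the GRCm38 annotation (mm10) Vpreb3 lies on the plus strand of chromosome 10 at chr10:75943057-75949657, Igll1 on the minus strand of chromosome 16 at chr16:16860671-16863985, Vpreb1 on the same strand at chr16:16868403-16870843, and Rag1 on the minus strand of chromosome 2 at chr2:101638282-101649501. All are protein-coding. Vpreb1 and Vpreb2 are near-copies, and the counts of the 2 genes rest on few differing bases, so their sequences are shown first. These are the last 150 coding bases of each, bases 280 to 429 counted from the start codon, at chr16:16868596-16868745 (minus strand) for Vpreb1 and chr16:17980931-17981080 (plus strand) for Vpreb2, with the 6 differing bases in capitals:
Vpreb1: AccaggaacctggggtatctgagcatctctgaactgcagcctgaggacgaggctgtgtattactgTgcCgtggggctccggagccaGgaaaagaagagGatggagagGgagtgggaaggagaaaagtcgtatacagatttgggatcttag
Vpreb2: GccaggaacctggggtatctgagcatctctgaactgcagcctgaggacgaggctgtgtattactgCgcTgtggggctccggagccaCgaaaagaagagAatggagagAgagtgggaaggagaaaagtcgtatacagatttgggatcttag
Over all 429 coding bases the 2 genes differ at 9. The split of counts between Vpreb1 and Vpreb2 is therefore uncertain, and so is that between Iglc2 and Iglc3, whose transcripts were 95.5% identical over 449 aligned bases.

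The promoters of the genes that defined the cells were read from RefSeq (GRCm38.p6) as the 200 bases before the transcription start listed there. For Vpreb3 and Vpreb1 this start and its window lie inside the gene span given above, whose outer end is a different start. They are shown because the levels of these genes are compared between dividing and non-dividing cells below, and capitals mark the octamer ATGCAAAT, the motif bound by the Oct1 and Oct2 factors of B cells, searched on both strands:
Vpreb3, chr10:75948100-75948299, plus strand: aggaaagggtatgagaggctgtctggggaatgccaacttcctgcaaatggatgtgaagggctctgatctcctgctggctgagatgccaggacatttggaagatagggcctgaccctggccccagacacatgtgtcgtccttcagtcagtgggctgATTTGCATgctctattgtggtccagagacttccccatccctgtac
Igll1, chr16:16863986-16864185, minus strand: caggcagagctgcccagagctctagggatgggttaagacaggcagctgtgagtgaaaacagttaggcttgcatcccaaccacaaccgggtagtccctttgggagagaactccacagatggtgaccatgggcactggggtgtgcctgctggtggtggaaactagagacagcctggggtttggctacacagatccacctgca
Vpreb1, chr16:16869256-16869455, minus strand: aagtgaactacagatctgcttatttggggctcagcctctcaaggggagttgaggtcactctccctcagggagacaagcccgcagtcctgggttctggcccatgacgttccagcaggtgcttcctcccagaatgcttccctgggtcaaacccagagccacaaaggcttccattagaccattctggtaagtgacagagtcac
Rag1, chr2:101649533-101649732, minus strand: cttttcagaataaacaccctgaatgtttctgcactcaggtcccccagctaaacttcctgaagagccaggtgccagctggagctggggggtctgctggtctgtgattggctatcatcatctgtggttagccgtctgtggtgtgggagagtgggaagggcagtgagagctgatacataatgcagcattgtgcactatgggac
The octamer occurred once among these windows, 45 bases before the RefSeq start of Vpreb3 (as ATTTGCAT). It was present in 1.38% of 32851 windows of the same length. The E-box CANNTG, the motif of the E-protein family that includes Tcf3, occurred 4 times in the Vpreb3 window, 3 times each in those of Igll1 and Rag1, and 1 time in that of Vpreb1. It was present in 58.2% of all windows. These matches are descriptions of letters, not of binding.

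The label was checked with 7 B-lineage genes that the rule did not use (Cd79a, Cd79b, Ebf1, Pax5, Blnk, Fcrla and Pou2af1). At least 3 of them had a UMI in 1133 of the 1137 cells (99.6%), against 24 of 1220 mesenchymal reference cells of the same library (1.97%; cells with at least 5 UMIs of Col1a2 and none of Ptprc). In the mature B reference cells described below, of which Cd79a was required, it was 286 of 288 (99.3%). These genes therefore show the B lineage and do not set precursors apart from mature B cells. Transcripts of Ebf1, a factor that commits cells to the B lineage, were found in 99.6% of the members. Those of Cd79a, a signalling chain of the B-cell receptor, were found in 98.4%. Among cells thinned to 2000 UMIs each, Ebf1 remained detectable in 95.9% and Cd79a in 91.9% of members, against 17.1% and 1.33% of the mesenchymal reference cells. Bfsp2, a filament gene of the eye lens that served as a marker here but was not part of the rule, had a UMI in 45.4% of the members before thinning and in 23.3% after it, against 0.167% of the mesenchymal cells after it.

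Membership was rarely decided by a single molecule of Vpreb3. The median was 18 UMIs per cell, 1005 members had 6 or more and 15 had exactly 1. Igll1 was found in 675 members, Vpreb1 in 667 and Rag1 in 808, and all 3 in 368. A further 105 cells met every condition except the absence of Ms4a1 (Cd20, of maturing B cells), 203 met all except the absence of Col1a2 (a fibroblast collagen), and 22 failed on both. Outside the rule also lay 405 cells with Vpreb3 but none of Igll1, Vpreb1 and Rag1, of which 84.7% had a UMI of Igkc, and 57 cells with a gene of that trio but no Vpreb3. At the edge of the rule, 254 members were admitted by a single UMI of that trio. Their median Vpreb3 count was 11 UMIs, and 90.2% had a UMI of Igkc.

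Precursors were found mainly at 1 of the 3 ages sampled. At P11, 16 of 2952 cells met the rule, 0.542% (interval 0.310 to 0.879), and 6 of them had a UMI of Top2a or Mki67. At P56 none of 5131 cells did, where a limit of 3 counts allows a share of up to 0.0585% and the exact binomial interval reaches 0.0719%. Among the P11 cells, Ebf1, Cd79a and Ighm were each found in 16 of the 16, Bfsp2 in 8, Il7r and Igkc each in 5 and Ptprc in 4. Among the P18 precursors, Il7r was found in 73.1% and Igkc in 60.8%. Mature B reference cells (Ms4a1 and Cd79a present, Igll1, Vpreb1, Rag1 and Col1a2 absent) numbered 3 at P11, 288 at P18 and 0 at P56, so they were frequent in the same library as the precursors. The 7 plates, labelled Gli1, were a separate collection of cells, and no well on them had a UMI of Vpreb3. Cd79a had a UMI in 1 well each of the P7 and P21 plates and in none of the others. With so few B-lineage wells, the plates cannot show at which ages precursors were present. Each age is its own pool of mice, sort and library, so age and library cannot be told apart. The P11 and P18 libraries shared 4 cell barcodes and the P18 and P56 libraries 9, of which 2 and 2 were barcodes of members.

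The P18 sort was meant to leave out cells with Cd45, which Ptprc encodes. Ptprc had a UMI in 42.4% of the members, and in 17.3% after thinning to 2000 UMIs (interval 15.1 to 19.8). In the mature B reference cells the thinned share was 50.4% (44.1 to 56.7), and it is 0 by definition in the mesenchymal reference. Summed over cells, Ptprc reached 82.6 CPM (counts scaled to 1000000 UMIs of the set) in precursors and 337 CPM in mature B cells, 4.08-fold lower in the precursors (interval of the ratio 3.61 to 4.61). Ptprcap, a protein that associates with Cd45, stood at 671 CPM in precursors and 683 CPM in mature B cells. It differed least of the 7 genes of the leukocyte surface list, which includes Ptprc. All 7 were lower in precursors by CPM, with log2 ratios from -2.71 to -0.03 and a median of -1.17. At least 4-fold lower were 2 of the 7, against 2.27% of all genes compared. Cells with Top2a or Mki67 gave 8288558 of the 10194078 precursor UMIs summed here. Over the 7 genes together, those cells stood at 2065 CPM, the other precursors at 3397 CPM and mature B cells at 5331 CPM. In the other precursors Ptprc stood at 135 CPM and Ptprcap at 924 CPM, the latter above its value in mature B cells. Protein at the cell surface was not measured in these files.

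A UMI of Top2a or Mki67, which mark dividing cells, was found in 617 of the 1137 precursors, 54.3% (51.3 to 57.2). These are called cycling and the other 520 resting. Of the cycling cells 542 had both transcripts, 46 had Top2a alone and 29 Mki67 alone. Cycling cells held a median of 10556 UMIs (quartiles 7007 and 16916), and resting cells a median of 2893.5 (2175.25 and 4556.25). After every cell was thinned to 2000 UMIs, which left out 98 shallower members, the share with Top2a or Mki67 was 52.2% of 1039 (49.1 to 55.2). The cells left out were 93 resting and 5 cycling. Of the 1039, 612 were cycling by their full counts and 542 after thinning, so the call depends on depth. Within cells, the 20 genes of an S phase list took a median of 0.414% of the UMIs of a cycling cell and 0.0343% of those of a resting cell. For the 20 genes of a G2 and mitosis list the medians were 0.367% and 0, and 384 of the 520 resting cells had no UMI of that list. The 95th percentile of the S phase share in resting cells was 0.129%, below the first quartile of cycling cells (0.231%).

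**Figure D1:**
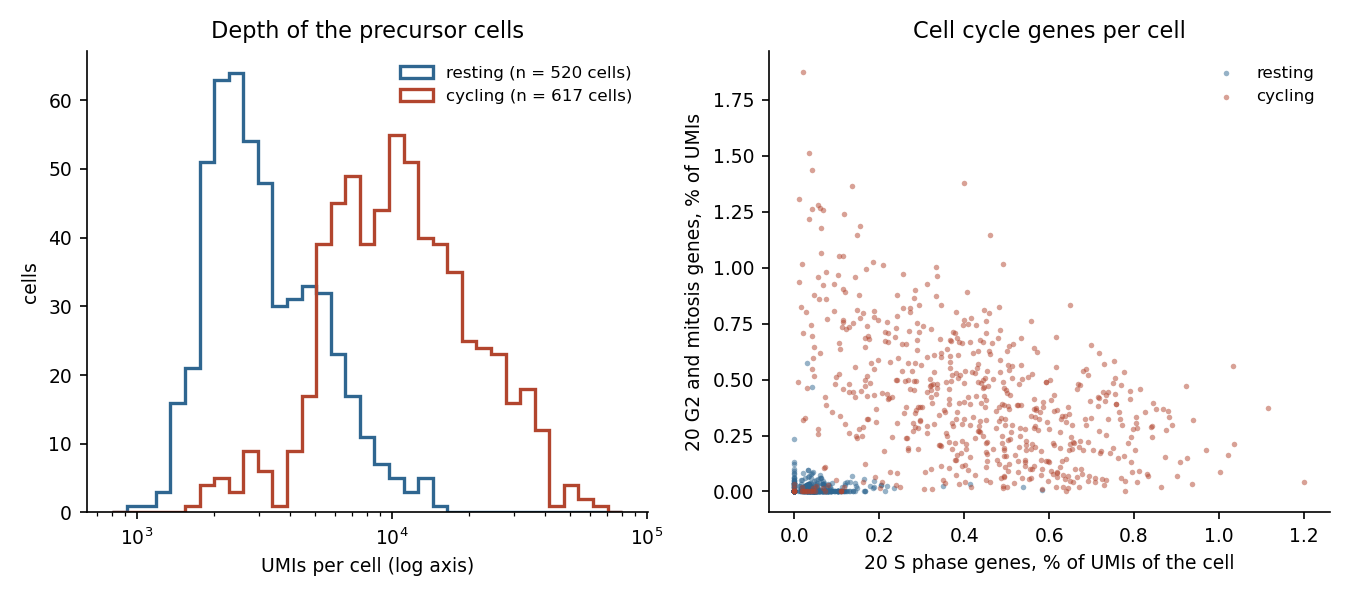
Left, number of precursor cells by UMIs per cell (log axis) for the 617 cycling and 520 resting cells, whose medians were 10556 and 2893.5. Right, each point is a cell, placed by the percentage of its UMIs in 20 S phase genes and in 20 G2 and mitosis genes; resting cells crowd near the origin and cycling cells spread along both axes.

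For the comparison of cycling with resting cells, counts were summed over each group (8288558 UMIs from cycling cells, 1905520 from resting cells) and expressed as CPM. Of 6846 genes with at least 100 UMIs, 768 (11.2%) were at least 2-fold higher in cycling cells and 808 (11.8%) at least 2-fold lower. Because Top2a and Mki67 defined the groups, these values describe the contrast and support nothing further. CPM is a share of a group's RNA, and cycling cells held more UMIs. Counted as UMIs per cell, the median of all genes moved up by 1.87 on the log2 scale. Per cell, 5780 of the 6846 genes were at least 2-fold higher and 17 at least 2-fold lower. The counts for lists below are to be read beside these numbers for all genes. By CPM these were 11.2% higher and 11.8% lower. Of the 808 genes lower by CPM, 109 were also lower per cell and 699 were higher per cell. Directions below are by CPM. A gene that was lower by CPM had more UMIs per cell in cycling cells unless its log2 ratio was below -1.87.

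All 20 S phase genes and all 20 G2 and mitosis genes were at least 2-fold higher in cycling cells, with medians of 2.86 and 4.85 on the log2 scale. The median of all genes tested was -0.15. Replication genes included Rrm2, a ribonucleotide reductase subunit, at 558 CPM in cycling and 22.04 in resting cells, and the clamp Pcna at 322 and 51.4 CPM (6.26-fold, interval 5.12 to 7.74). The 6 subunits of the Mcm helicase ranged from 3.09-fold (Mcm7) to 10.8-fold (Mcm5). Among mitotic genes, the kinase Cdk1 stood at 234 and 5.25 CPM (44.6-fold, 24.2 to 93.1) and Birc5, a subunit of the chromosomal passenger complex, at 445 and 11.0 CPM. Plk1 and Bub1, kinases of mitosis, had 396 and 360 UMIs in cycling cells and 0 in resting cells, and were at least 30.3-fold and at least 27.6-fold higher. The counts were 20 of 20 for each list also without the members that held RNA of other blood cells (below).

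The 12 genes with the largest ratios included the mitotic kinase Pbk (1011 UMIs against 1, ratio 232, interval 41.6 to 9189), the spindle protein Aspm (541 against 1), the linker histone Hist1h1b (1557 against 3) and the histone Hist1h2ap (954 CPM against 9.97, 95.7-fold). All 10 genes of the histone and chromatin replication list were at least 2-fold higher, with Hmgb2 at 5768 and 904 CPM and Stmn1, a tubulin-binding protein, at 2898 and 422 CPM.

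Genes that control entry into the cycle were less uniform. Of 15 measured, 6 were at least 2-fold higher and 2 at least 2-fold lower, against 11.2% and 11.8% of all genes. Ccnd3, the D-type cyclin required for expansion of pre-B cells, stood at 396 CPM in cycling and 141 CPM in resting cells (2.82-fold, 2.49 to 3.20). Ccnd2, another D-type cyclin, was far less abundant, at 42.1 and 18.9 CPM. The kinase Cdk4 stood at 227 and 79.8 CPM, and the activators E2f1 and E2f2 were 9.46-fold and 3.41-fold higher. Cdkn2c, an inhibitor of Cdk4 and Cdk6, was also higher in cycling cells, at 73.0 against 2.10 CPM. The antiproliferative genes Btg1 and Btg2 were lower in cycling cells, 3.32-fold and 2.81-fold by CPM, while their UMIs per cell were slightly higher there (7.09 against 6.41 for Btg1). Txnip, an inhibitor of thioredoxin and of glucose uptake, was lower on both scales, with 57.2 against 546 CPM (9.54-fold lower, 8.55 to 10.7) and 0.768 against 2 UMIs per cell.

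Of 11 measured Myc-related and biosynthesis genes, 5 were at least 2-fold higher in cycling cells and none lower, against 11.2% and 11.8% of all genes. Nme1 was 2.74-fold higher, the transferrin receptor Tfrc 2.40-fold, and Ldha, which makes lactate, 2.40-fold. The other 6 were between 1.21-fold (Pkm) and 1.88-fold (Gapdh). None of the 6 measured survival and cell death genes passed 2-fold by CPM. All 6 were at least 2-fold higher per cell, as were 5780 of all 6846 genes. The anti-apoptotic Mcl1 stood at 242 and 418 CPM.

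**Figure D2:**
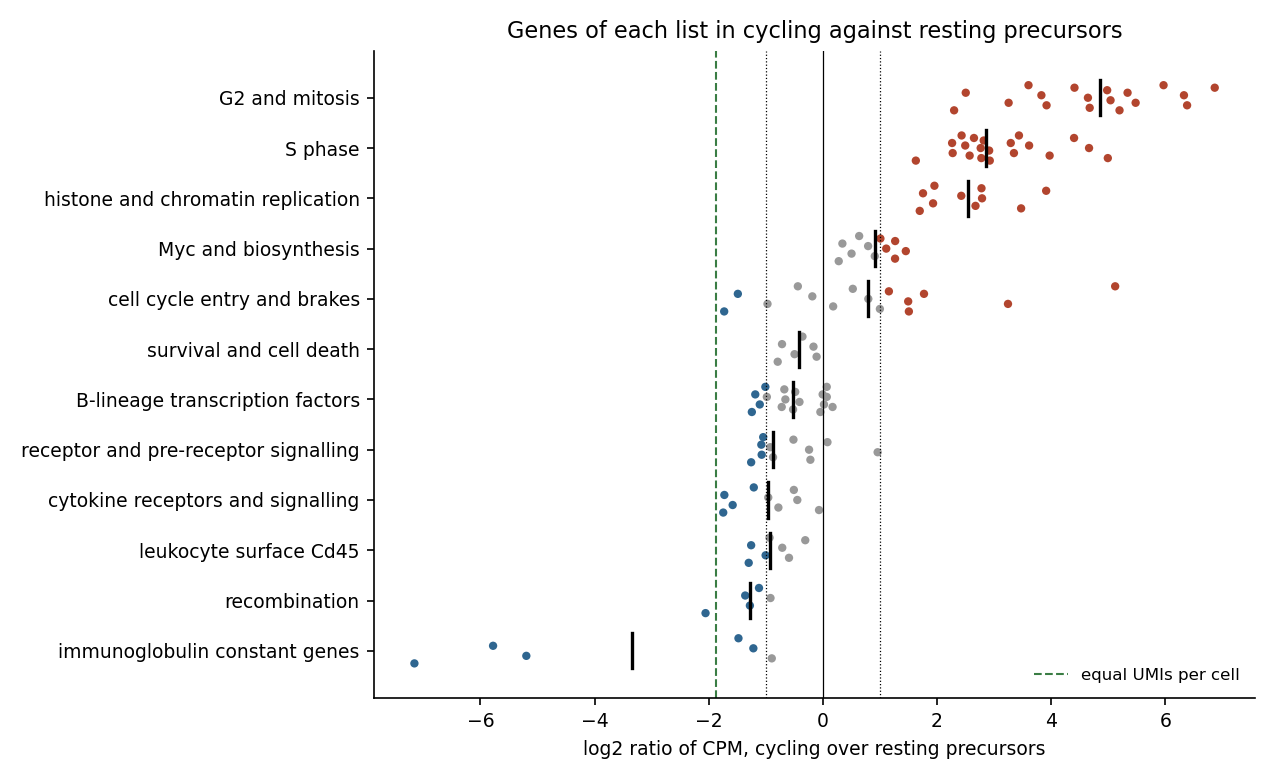
Each point is a gene of the named list with at least 100 UMIs, placed by the log2 ratio of CPM in cycling over resting precursors; red and blue points are at least 2-fold higher or lower, bars are list medians, dotted lines mark 2-fold, and the dashed line at -1.87 is where UMIs per cell are equal. Plk1 and Bub1, at 0 in resting cells, enter the median at their lower bound and are not drawn; of the 12 lists drawn, the lambda genes and Xrcc6 lie left of the dashed line.

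Of 5 recombination genes measured besides Rag1, 4 were at least 2-fold lower in cycling cells by CPM, against 11.8% of all genes. Per cell none of the 5 passed 2-fold in either direction, where 5780 of all 6846 genes were at least 2-fold higher. Rag1, which was part of the rule, stood at 113 CPM (106 to 121) in cycling and 564 CPM (531 to 599) in resting cells, and it was lower per cell as well, with 1.52 against 2.07 UMIs. Rag2, its partner, stood at 36.6 and 88.7 CPM (2.43-fold lower, 1.998 to 2.94), with 0.491 against 0.325 UMIs per cell. Xrcc6, the Ku70 subunit of end joining, showed the largest difference of the 5, Rag1 left out, 147 against 611 CPM (4.16-fold lower) and 1.98 against 2.24 UMIs per cell. Dntt was 2.17-fold lower by CPM, with 3.55 against 2.10 UMIs per cell. Lig4, the ligase of end joining, was 1.89-fold lower by CPM and also higher per cell.

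The surrogate light chain genes kept the same order in both groups, Vpreb3, then Vpreb1, then Igll1, then Vpreb2. Vpreb3 stood at 1956 and 4137 CPM, Vpreb1 at 659 and 1694, Igll1 at 553 and 1074 and Vpreb2, which was not used in the rule, at 79.9 and 157 CPM. The ratios lay between 1.94-fold lower (Igll1) and 2.57-fold lower (Vpreb1), and each gene had more UMIs per cell in cycling cells (26.3 against 15.2 for Vpreb3). Bfsp2 differed from these in direction, at 227 CPM in cycling and 166 CPM in resting cells (1.37-fold higher, 1.21 to 1.55).

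Of 17 measured B-lineage transcription factors, none was 2-fold higher and 4 were 2-fold lower by CPM in cycling cells (Ebf1, Foxo1, Ikzf3 and Bcl6). Among all genes the shares were 11.2% higher and 11.8% lower. Per cell 12 of the 17 were 2-fold higher and none lower, where 5780 of all 6846 genes were higher. Ebf1, the most abundant, stood at 1899 and 4499 CPM (2.37-fold lower, 2.31 to 2.43), but at 25.5 and 16.5 UMIs per cell. Foxo1, an activator of Rag transcription, stood at 64.4 and 146 CPM. Pax5, which maintains B-cell identity, stood at 104 and 145 CPM, Myb at 435 and 415 CPM and Irf4, a factor of light chain rearrangement, at 149.1 and 149.6 CPM.

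Of 11 receptor and pre-receptor signalling genes, 4 were at least 2-fold lower by CPM (Lyn, Blnk, Cd79b and Syk) and none higher. Among all genes the shares were 11.8% lower and 11.2% higher. Per cell 6 of the 11 were higher and none lower, where 5780 of all 6846 genes were higher. Blnk, the adaptor downstream of the pre-B-cell receptor, stood at 232 and 490.2 CPM. Of 9 cytokine receptor and signalling genes, 4 were at least 2-fold lower by CPM (Kit, Il2rg, Il2ra and Jak1), against 11.8% of all genes. Per cell 4 of the 9 were higher. Il7r, the receptor for the growth factor of mouse B-cell precursors, stood at 223 and 383 CPM, 1.72-fold lower (1.57 to 1.87), with 2.998 against 1.40 UMIs per cell. Of 7 genes of the leukocyte surface list, 3 were at least 2-fold lower by CPM (Cd53, Cd37 and Laptm5) and 3 higher per cell, and Ptprc stood at 70.6 and 135 CPM.

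The lists of B-cell stages are given by their counts. Among all 6846 genes, 11.2% were at least 2-fold higher and 11.8% lower by CPM, and 5780 were at least 2-fold higher per cell. Of 10 small precursor stage genes, 6 were at least 2-fold lower and 1 higher by CPM, whereas per cell 4 were higher and none lower; the adhesion receptor Cd2 was 4.72-fold lower. Of 5 early progenitor genes 2 were lower by CPM (Dntt and Kit) and 3 higher per cell. Of 7 mature B genes 1 was lower by CPM and 5 were higher per cell, and of 7 adhesion and homing genes 2 were lower by CPM (Ly6d and S1pr1) and 5 higher per cell. Of 9 stress and immediate-early genes 1 was higher and 1 lower by CPM, and 7 were higher per cell. By CPM, the counts of the mature B and stress lists were near the shares of all genes.

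The largest differences on the low side were in light chains. Of 6 measured immunoglobulin constant genes, 5 were at least 2-fold lower in cycling cells by CPM and 3 per cell. Among all 6846 genes these were 11.8% by CPM and 17 genes per cell. Iglc1 stood at 3.14 CPM (2.05 to 4.60) in cycling and 447 CPM (418 to 478) in resting cells, 143-fold lower (96.6 to 219). Iglc3 and Iglc2 were 54.8-fold and 36.6-fold lower, and all 3 lambda genes were lower per cell too. Igkc stood at 669 and 1864 CPM, with 8.98 against 6.83 UMIs per cell. Ighm was 1.86-fold lower by CPM and had 18.2 against 9.21 UMIs per cell. Among the other genes with the 12 smallest ratios, Reln had 15 UMIs in cycling against 97 in resting cells, Fcrl6 24 against 107 and Cacna1e 37 against 96. Ly6d, a surface protein of B-lineage cells, was 5.203-fold lower (4.81 to 5.63) and S1pr1, the receptor that lets lymphocytes leave tissues, 5.10-fold lower (4.13 to 6.30); both were lower per cell.

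The cells were also divided by how many of the 2 cycle genes they held. The outer sets are the resting cells and most of the cycling cells, so the values describe the same contrast and are no separate evidence for it. Cells with neither, with 1 and with both of Top2a and Mki67 numbered 520, 75 and 542. Rag1 stood at 564, 277 and 102 CPM across these sets, Txnip at 546, 204 and 47.1 CPM, and Igkc at 1864, 1135 and 637 CPM. Ccnd3 ran the other way, at 141, 315 and 402 CPM, as did Pcna at 51.4, 219 and 329 CPM. Other genes had no such order. Cd74 stood at 333, 453 and 163 CPM. Kit stood at 53.0, 3.75 and 16.6 CPM, its middle value resting on 2 UMIs in 75 cells (interval 0.454 to 13.5 CPM). Nrgn, a calmodulin-binding protein better known from neurons, was named after its values were seen. It had 3 UMIs in the 520 resting cells and 110 CPM in cycling cells (ratio 69.7, 23.8 to 338), with 1.57, 56.2 and 113 CPM across the 3 sets. After thinning, Nrgn was found in 10.6% of cycling cells, 0.234% of resting cells, 3.91% of mature B reference cells and 0.667% of mesenchymal reference cells.

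**Figure D3:**
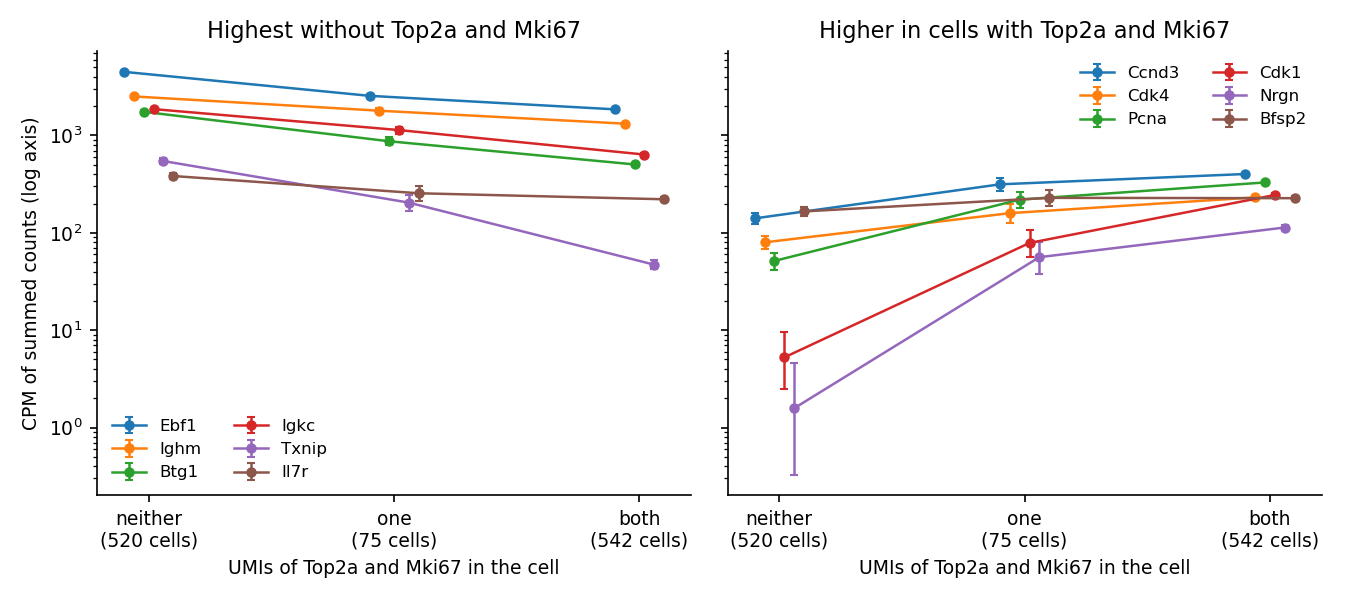
CPM (log axis) in cells with neither, with 1 and with both of Top2a and Mki67 (520, 75 and 542 cells); bars are exact Poisson 95% intervals. Left, genes highest in cells with neither; right, genes higher in cells with both, Nrgn running from 1.57 to 113 CPM.

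The precursors were divided by which of the rule genes admitted them, so these sets are a choice made from Igll1, Vpreb1 and Rag1 and depend on the detection of single UMIs. Among resting cells 50 had Igll1 or Vpreb1 but no Rag1, 195 had both kinds and 275 had Rag1 only. Among cycling cells the numbers were 279, 234 and 104. The share with Rag1 only was thus 52.9% of resting and 16.9% of cycling cells before thinning, and 38.4% (33.8 to 43.2) and 11.3% (8.88 to 14.1) at 2000 UMIs, where 7.73% of resting and 28.3% of cycling cells showed none of the 3 genes. Igll1, Vpreb1 and Rag1 made these sets, so only other genes are compared below.

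Resting cells with Rag1 only differed from the other resting cells in some genes of early and of late precursors. Not every gene followed its list: Bfsp2 belongs to the small precursor stage list and Il7r to the early progenitor list. The remaining genes of those lists are not all given here. Dntt stood at 813 CPM in cells with surrogate light chain only, 938 CPM in cells with both kinds and 2.82 CPM in cells with Rag1 only. Lef1, a factor of early B-cell precursors, stood at 399, 528 and 45.1 CPM, Egfl7 at 105, 115 and 0 CPM, and Bfsp2 at 221, 246 and 39.5 CPM. In the opposite direction Igkc stood at 1196, 548 and 3856 CPM, Ly6d at 233, 153 and 1666 CPM, and Cd74, the invariant chain of antigen presentation, at 72.5, 82.3 and 759 CPM. Il2ra (Cd25, a marker of small pre-B cells) and Cd2 were low in the first pair of sets and stood at 81.8 and 159 CPM in cells with Rag1 only. Il7r was highest there as well, at 563 CPM against 262 and 281, and Ighm was at 4443 CPM against 1570 and 1320. Ebf1 differed less across the sets, at 4464, 4818 and 4083 CPM.

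The separation remained at equal depth. At 2000 UMIs per cell, Dntt was found in 66.1% (59.6 to 72.2) of 230 resting cells with a surrogate light chain and in 0.610% (0.0154 to 3.35) of 164 with Rag1 only. Igkc was found in 18.7% (13.9 to 24.3) and 89.6% (83.9 to 93.8), and Lef1 in 60.9% (54.2 to 67.2) and 8.54% (4.75 to 13.9). The background share of Igkc in the mesenchymal reference, with its median of 10142.5 UMIs per cell before thinning, was 1.67% at 2000 UMIs, and that of Dntt was 0.5004%, close to its share in cells with Rag1 only.

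Within cells with Rag1 only, cycling and resting members still differed in light chains. Igkc stood at 2305 CPM in the 104 cycling and 3856 CPM in the 275 resting cells, Iglc1 at 8.45 and 1110.0 CPM, and Ly6d at 475 and 1666 CPM. In cells with both kinds, Dntt stood at 561 CPM in cycling and 938 CPM in resting cells. In cells with surrogate light chain only the gap was wider, at 64.3 and 813 CPM.

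**Figure D4:**
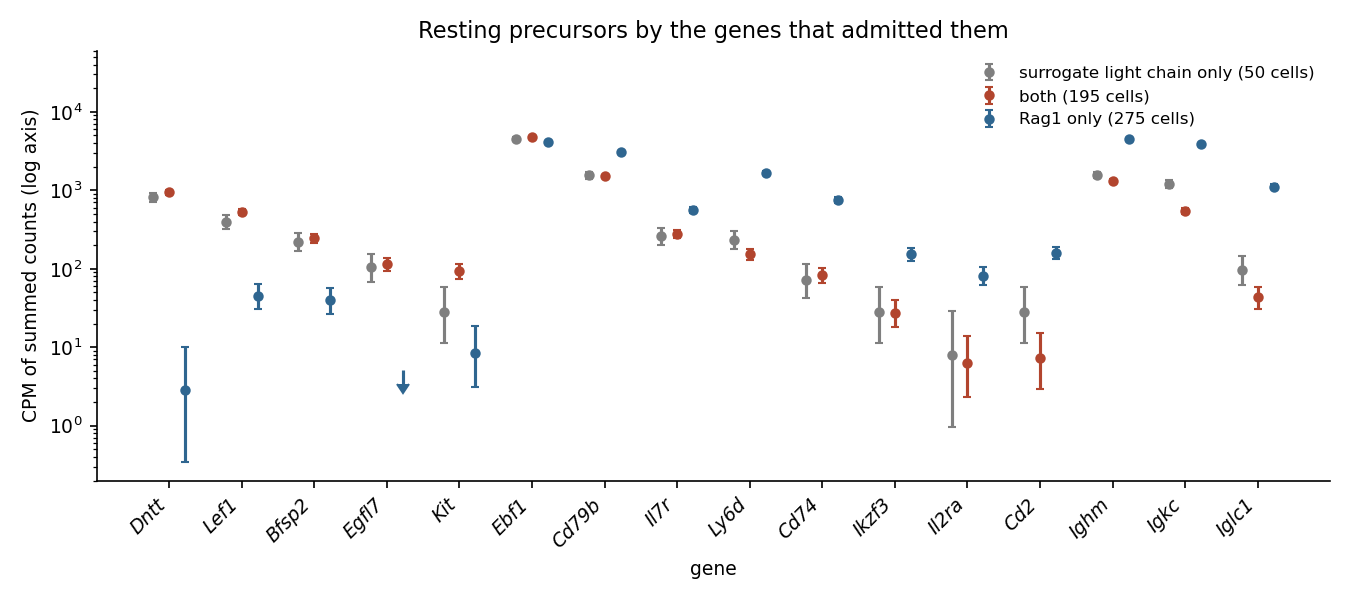
CPM (log axis) with exact Poisson 95% intervals in the 50, 195 and 275 resting precursors admitted by surrogate light chain only, by both kinds and by Rag1 only; the arrow marks the upper limit for Egfl7, which had no UMI in cells with Rag1 only. Dntt, Lef1, Bfsp2, Egfl7 and Kit are low and Igkc, Iglc1, Ly6d, Cd74 and Cd2 high in that set.

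Kappa and lambda transcripts were counted per cell with a threshold of 10 UMIs, set after the values were seen. Of 520 resting cells, 118 reached it for Igkc alone, 47 for the summed lambda genes alone and 17 for both, and 188 had no light chain UMI. The cells over the threshold were mostly those with Rag1 only: 99 for kappa alone and 46 for lambda alone of 275. Of 617 cycling cells, 234 reached it for kappa alone, 2 for lambda alone and none for both. The threshold is not scaled to depth, and the medians were 10556 UMIs in cycling and 2893.5 in resting cells. At 2000 UMIs per cell Igkc was found in 52.6% of cycling and 51.5% of resting cells. In the mature B reference the numbers were 176, 25 and 52 of 288. Of the 195 resting cells with both kinds of admitting gene, 147 (75.4%) had no light chain UMI, against 7 of 275 (2.55%) with Rag1 only.

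**Figure D5:**
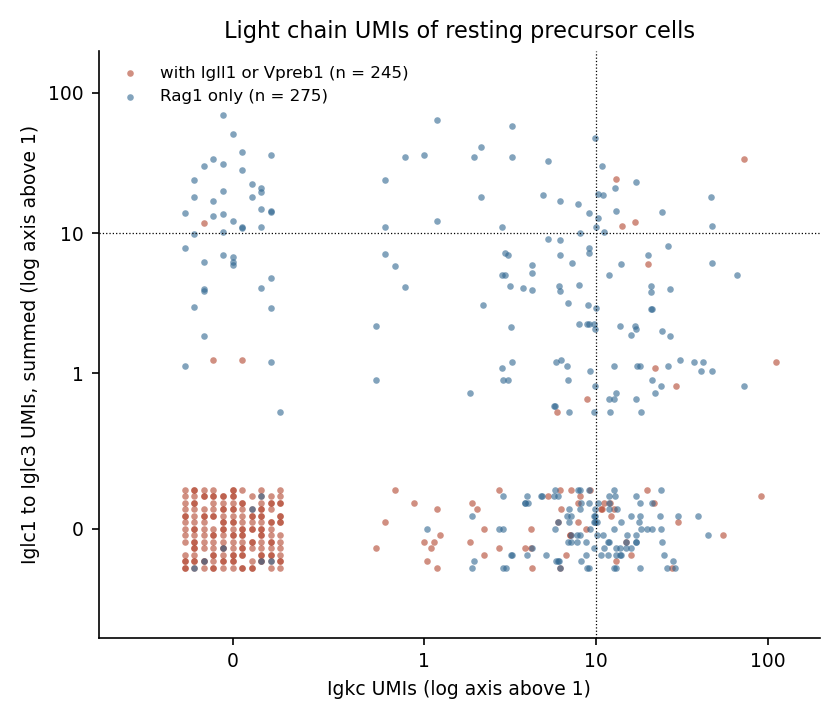
Each point is 1 of the 520 resting precursors, placed by its UMIs of Igkc and of Iglc1 to Iglc3 summed (log axes above 1, points spread slightly around whole numbers); dotted lines mark 10 UMIs. Most cells past a line carry 1 of the 2 chains (118 kappa, 47 lambda, 17 both), and most cells with Igll1 or Vpreb1 sit at the origin.

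Compared with the 288 mature B reference cells of the same library (median 2802.5 UMIs), 248 of 7183 genes (3.45%) were at least 4-fold higher in the 1137 precursors and 163 (2.27%) at least 4-fold lower. The reference was defined by Ms4a1 and by the absence of Igll1, Vpreb1 and Rag1, so these genes are not findings. Per cell, the median of all genes was higher by 1.18 on the log2 scale. Among recombination genes, Dntt had 3282 UMIs in precursors and 2 in mature cells (ratio 184, 50.8 to 1518), Rag2 was 10.6-fold higher (4.50 to 32.7) and Xrcc6 4.68-fold higher. Vpreb2 had 962 UMIs against 2 (ratio 53.9, 14.9 to 445). Of 5 early progenitor genes 4 were at least 4-fold higher: Dntt, Il7r (253 against 56.1 CPM), and Egfl7 and Kit, which had no UMI in mature cells and were at least 17.5-fold and at least 8.66-fold higher. Lef1 stood at 199 and 20.1 CPM, and Bfsp2 at 216 and 27.2 CPM (7.94-fold, 5.57 to 11.7). Vpreb3 itself was 2.002-fold higher.

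Of 9 measured mature B genes, 8 were at least 4-fold lower in precursors, against 2.27% of all genes compared. Cd74 stood at 210.1 and 8501 CPM (40.5-fold lower, 38.6 to 42.4), the class II gene H2-Eb1 at 15.9 and 787 CPM, and Fcmr, the receptor for IgM, at 9.52 and 375 CPM. Ighd, expressed as IgD on maturing cells, was 3.13-fold lower. Of the 6 immunoglobulin constant genes 4 were at least 4-fold lower, with Igkc at 892 and 7096 CPM, while Ighm was 1.95-fold lower by CPM and slightly higher per cell (14.1 against 12.1 UMIs). Among the 12 smallest ratios, Cd83 was 82.0-fold lower and the early response factor Egr3 had 5 against 95 UMIs. Of 10 stress and immediate-early genes 5 were at least 4-fold lower, Junb among them at 153 and 765 CPM. Tnfrsf13c, the Baff receptor that sustains mature B cells, stood at 111 and 581 CPM.

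Among the B-lineage factors, Lef1 was at least 4-fold higher and Ikzf3, a factor that rises as B cells mature, 4.38-fold lower. The remaining 15 lay within 4-fold, Sox4 at 496 against 145 CPM, Myb at 432 against 117 CPM and Spib at 118.5 against 339 CPM. Of 11 receptor and pre-receptor genes Cd22, an inhibitory co-receptor, was 5.07-fold lower and the other 10 lay within 4-fold. A UMI of Top2a or Mki67 was found in 54.3% of precursors and 11.8% of mature B reference cells, and in 52.2% and 10.2% at 2000 UMIs. Of 20 G2 and mitosis genes 10 were at least 4-fold higher in precursors, and of 20 S phase genes 7, against 3.45% of all genes. An alternative added after the data were seen set resting precursors against mature cells without Top2a and Mki67. There 102 genes were at least 4-fold higher and 44 lower, of which 43 and 42 were among the 248 and 163.

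RNA of other blood cells made up more than 1% of UMIs in few members, while single UMIs of it were common. Among resting cells, S100a9 had a UMI in 41.5%, S100a8 in 29.8% and Hbb-bs in 21.7%. In 31 of 1137 (17 cycling and 14 resting), more than 1% of UMIs came from neutrophil, erythroid, macrophage or T and NK cell lists, against a median of 0.0411%. In 1 cycling cell the erythroid list took 80.8% of UMIs. The summed neutrophil list reached 4550 CPM in cycling and 11575 CPM in resting cells, with 94.3% and 97.2% of those UMIs in the 12 cells highest for the list. Of the 10 genes of the T and NK cell list, 7 had a UMI in cycling and 7 in resting cells, and Cd3e and Cd4 were at 0 in all members. That list summed to 11.6 CPM in cycling and 18.4 CPM in resting cells. Of the macrophage list, all 10 genes had a UMI in cycling cells and 7 in resting cells, where C1qa, C1qc and Mrc1 were at 0. It summed to 283 CPM in cycling and 733 CPM in resting cells, with 83.3% and 92.9% of those UMIs in the 12 highest cells. The mesenchymal list, which holds Col1a2, fixed at 0 in members by the rule and at 5 or more UMIs in the reference, summed to 96.4 and 188 CPM in cycling and resting members, against 124333 CPM in the mesenchymal reference.

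The values of the blood genes rested on these cells. By all members, Hbb-bs stood at 1581 and 67.2 CPM in cycling and resting cells, with 97.3% of its UMIs in 5 cells. Without the 31 cells Hbb-bs, Hbb-bt, Hba-a1 and Hba-a2 were all at least 2-fold lower in cycling cells, and Elane, Prtn3 and Lyz2 had the opposite direction as well. In the mature B reference 2 cells had more than 1% erythroid UMIs. Retnla and the complement genes C1qa and C1qb, among the 12 smallest ratios of precursors to mature cells, had 100%, 100% and 97.9% of their UMIs in 5 cells. Without cells over 1%, 742 genes were at least 2-fold higher and 781 lower in cycling cells, and 724 and 727 of them were among the 768 and 808. The part of free RNA in these values was not tested.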

How the data were processed

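The 3 droplet libraries (P11, P18 and P56) and 7 plates were deposited by the authors as counts, whole-number UMIs per gene and cell or well with no normalization. The genome build was mm10 per the submitters' processing notes, and the P18 matrix was written by software version 3.1.0 per the file headers. The aligner's settings are not given in the sources used here. The matrices list 31053 genes, of which 35 symbols occur more than once and were left out of the gene lists. The library totals were 44104990, 53725468 and 40082499 UMIs.

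A cell was kept if it showed 500 or more genes and no more than 10% of its counts were mitochondrial. UMIs were summed over each cell set and given as CPM, scaled to 1000000 UMIs of that set, with exact Poisson intervals. Shares have exact Clopper-Pearson intervals and ratios exact conditional ones, all at 95% and covering counting error only. A gene was compared when it had at least 100 UMIs over both sets. It was called at 2-fold (cycling against resting) or 4-fold (against mature B cells), and a set at 0 was given a floor of 3 counts over the set. Each age is 1 library of pooled mice, so no test or p-value was computed.

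Named genes were those of the gene lists and, per direction, the 12 with the largest ratios among compared genes, leaving out mitochondrial, predicted and Riken genes, with genes at 0 ranked by their bound. The members and lists were chosen with earlier results of these data known. Some genes of the lists are not reported here and were left out of the counts over lists. For depth, cells were thinned to 2000 UMIs. Doublets were not removed from the main values: scrublet in scanpy 1.11.5 called 1 cell automatically (0.0185%) and had not worked, so an alternative removed the 233 highest scores, 55 of them members. The calculation was tested on simulated counts. Software was Python 3.11.15, numpy 2.4.6, scipy 1.17.1, pandas 2.3.3, biopython 1.88 and matplotlib 3.10.9.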

Additional observations from a re-analysis of the deposited data

How the results depend on the processing

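The precursor share of 21.1% became 27.2% without the conditions on Ms4a1 and Col1a2, and the cycling share of 54.3% became 61.9% for cells of 1000 or more genes and no more than 5% mitochondrial UMIs and 47.7% when both Top2a and Mki67 were required. The 768 genes at least 2-fold higher and 808 lower in cycling cells became 248 and 211 with members thinned to 2000 UMIs, 457 and 380 with at least 300 UMIs, 1308 and 2874 with no filter on low counts, and, chosen after seeing the data, 5780 and 17 as UMIs per cell and 192 and 124 within cells with Rag1 only. Fewer genes pass a count minimum in thinned or smaller sets. The 248 genes at least 4-fold higher than in mature B cells became 407 with the mean of per-cell CPM, 117 with at least 300 UMIs and 102 for resting precursors. The 163 lower became 96, 69 and 44 in the same settings, 265 with at least 50 UMIs and 1047 with no filter. With the highest doublet scores removed, these log2 ratios of cycling over resting cells reversed: Elane -0.84, Hba-a1 -1.43, Hba-a2 -1.44, Hbb-bs -1.21 and Hbb-bt -1.62. So did these without cells over 1% other blood RNA, chosen after seeing the data: Elane -0.70, Hba-a1 -1.41, Hba-a2 -1.42, Hbb-bs -1.25, Hbb-bt -1.61, Lyz2 0.59 and Prtn3 -0.52. Against mature B cells, C1qb 0.64, Elane -0.22 and Mpo -0.73 reversed with doublet scores removed. Elane -0.43 and Mpo -0.53 also reversed without cells over 1% other blood RNA. The cause was not tested. No paired analysis was possible because only 1 library was made per age. Depth limits resting cells most, and 93 of 520 fell short of 2000 UMIs.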
